A study of Mus musculus with 10 samples.

Results

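Of 55487 annotated genes in the table, 107 carried the name of a heat shock protein, a J protein, a subunit of the CCT chaperonin, a BAG domain protein, heat shock factor 1, calnexin or calreticulin. The 82 of them that reached 1 TPM (a level per transcript length, with every library brought to an equal sum) in at least 5 of 10 libraries are described here, out of 13930 genes that passed the same minimum. The other 25 stayed under it, among them the small heat shock genes Hspb2, Hspb3, Hspb7 and Hspb9. Just inside the minimum was Dnajb13, at a mean of 0.906 TPM, and just outside it Hspd1-ps5, at 0.814 TPM. Names alone chose the members, so 6 of the 82 are pseudogenes or related sequences by their symbols, and family membership does not show chaperone activity. Hspb11, for example, carries a heat shock name, yet its product is known as a subunit of the intraflagellar transport machinery.

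The series asked what Ser452 of Pep, the protein tyrosine phosphatase encoded by Ptpn22, does in the T cells of a tumour. S452A mice carry alanine at that residue and were set against WT mice, with 5 animals and 5 libraries of each genotype. In both genotypes the line MC38, derived from a mouse colon carcinoma, was injected into animals aged 8 weeks and grew for 18 days, after which collagenase digests of the tumours were sorted for CD8+ T cells and sequenced in bulk. The design text writes the allele as PepS425A, whereas the title and the sample labels give S452A, and neither the strain nor the sex of the mice is stated in the labels.

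The libraries did not look like purified CD8+ T cells. The 8 T cell markers summed to 15.0 to 135 TPM in S452A libraries and 12.1 to 126 TPM in WT libraries, whereas 8 macrophage markers summed to 17341 to 22930 TPM in S452A libraries and 16486 to 23049 TPM in WT libraries. Cd8a was between 0.64 and 14.5 TPM in S452A libraries and between 0.27 and 14.4 TPM in WT libraries. Fibroblast markers summed to 84.3 to 239 TPM in S452A libraries and 184 to 359 TPM in WT libraries, and epithelial markers to no more than 5.22 TPM. The chaperone values therefore describe the sorted mixture, and their levels in T cells were not measured apart. In such bulk samples, fewer cells of a type and less RNA per cell cannot be told apart. The deposited TPM keep no read counts, so the depth behind each value is unknown.

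Chaperones bind unfolded proteins and help them fold, refold or be degraded. HSP70 proteins work in cycles of ATP binding that J proteins start and that BAG and HSP110 proteins end by nucleotide exchange, HSP90 acts on clients that are nearly folded, and the CCT ring encloses actin, tubulin and other clients. Heat shock factor 1 switches on the inducible genes of the cytosol when unfolded protein accumulates, while the unfolded protein response does so for the chaperones of the endoplasmic reticulum (ER). Some members of each family are made at all times, others mostly under stress.

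The chaperone genes together took 1.88% to 2.28% of all TPM in S452A libraries and 2.04% to 2.51% in WT libraries. Mean levels spanned a wide range: 64 of the 82 averaged at least 10 TPM, 30 at least 100 TPM and 6 at least 1000 TPM. The order of the top 6 by TPM, a scale corrected for transcript length, was Hspa1b, Hspa1a, Hspa8, Hsp90ab1, Hsp90aa1 and Hspa5. Hspa1b and Hspa1a, the stress-inducible cytosolic HSP70 genes, ranked 19 and 35 among the 13930 genes, ahead of the constitutive HSP70 gene Hspa8 at rank 42. Gene by gene, that order reverses when near-identical copies are counted with Hspa8. The summed mean is then 5282 TPM, against 4276 TPM for Hspa1b and 3256 TPM for Hspa1a. Hspa1a and Hspa1b are near-identical too. Their sum stayed above Hspa8 with its copies in every library, at a log2 ratio of 0.13 to 0.72. Hspa1a and Hspa1b alone made up 28.8% to 36.2% of the chaperone TPM in S452A libraries and 32.2% to 38.2% in WT libraries. The chaperone TPM cover the 82 members only. They leave out near-identical copies under other names, such as those of Hspa8, at a mean of 2303 TPM in sum.

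**Figure D1:**
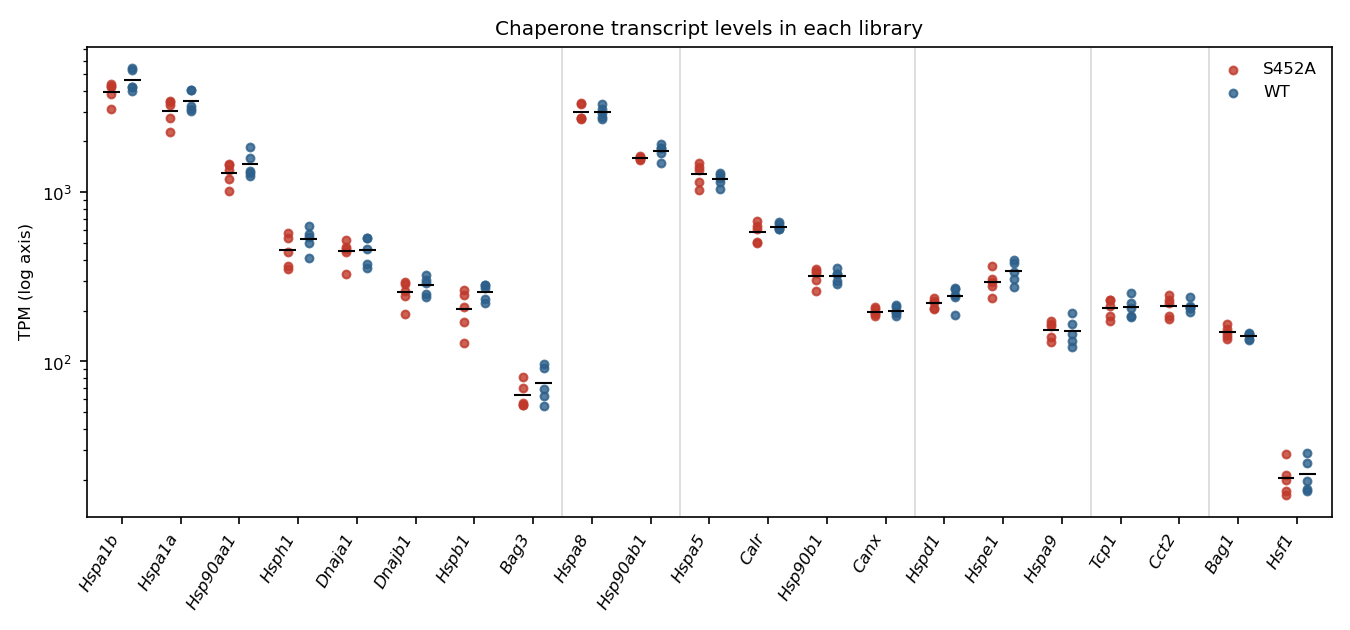
TPM of the named chaperone genes that lead each class, on a log axis, with 1 point per library, S452A in red left of WT in blue and a bar at each group's mean. Hspa1b, Hspa1a and Hspa8 stand highest, Hsf1 lowest, and the points of both genotypes overlap for each gene shown.

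Hspa1b reached 3109.7, 3822, 4207, 4348 and 4237 TPM in S452A libraries 1 to 5, against 4175, 5258, 3975, 4214 and 5412 TPM in WT libraries 1 to 5. Hspa1a reached 2283, 2734, 3400.1, 3447 and 3296 TPM in S452A libraries, against 3101, 4029, 3012, 3229 and 4032 TPM in WT libraries. For both genes S452A library 1 was lowest and WT libraries 2 and 5 were highest, while the remaining libraries of the genotypes overlapped. Hspa1b averaged 3945 ± 507 TPM in S452A and 4607 ± 673 TPM in WT libraries (SD, n = 5 each), a difference (S452A minus WT) of -0.22 on the log2(TPM + 1) scale (95% interval -0.50 to 0.06, limma adjusted p = 0.952). The difference of Hspa1a was -0.20 (-0.51 to 0.10, limma adjusted p = 0.952). Transcripts of the genes are 99.23% identical over 2201 aligned bases, so the split of reads between them is uncertain. The difference of their sum was -0.21 (limma adjusted p = 0.952).

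The upstream sequences of both genes are shown because the letters searched for as a heat shock element, GAANNTTC, lie in each at 104 bases before the start. They are the 250 bases before the RefSeq start on GRCm38.p6, at chr17:34972157-34972406 for Hspa1a and chr17:34959239-34959488 for Hspa1b, both on the minus strand and written 5′ to 3′ along it, and capitals mark the match. Of the 250 positions, 3 differ between them.
Hspa1a: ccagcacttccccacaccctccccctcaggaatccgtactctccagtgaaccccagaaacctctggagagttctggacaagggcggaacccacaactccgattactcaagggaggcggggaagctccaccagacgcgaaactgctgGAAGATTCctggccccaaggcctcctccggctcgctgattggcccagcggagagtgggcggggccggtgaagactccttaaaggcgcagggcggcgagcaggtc
Hspa1b: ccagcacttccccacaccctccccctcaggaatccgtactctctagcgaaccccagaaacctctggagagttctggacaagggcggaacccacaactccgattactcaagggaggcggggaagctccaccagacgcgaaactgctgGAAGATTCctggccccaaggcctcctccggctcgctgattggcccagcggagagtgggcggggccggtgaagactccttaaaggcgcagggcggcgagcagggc
Hspb1, at chr5:135887669-135887918 on the plus strand, holds the same letters at 2 places, 117 and 97 bases before its start.
Hspb1: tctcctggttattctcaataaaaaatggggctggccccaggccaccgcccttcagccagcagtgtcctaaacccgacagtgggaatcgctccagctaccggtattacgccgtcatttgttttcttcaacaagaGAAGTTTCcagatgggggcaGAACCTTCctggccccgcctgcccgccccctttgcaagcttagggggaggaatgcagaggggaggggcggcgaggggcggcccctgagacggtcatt

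Of the 82 members, 61 matched a RefSeq promoter of 250 bases before to 50 after the start, and both strands were searched in these and in the promoters of 27025 genes. GAANNTTC was found in 7 of the 10 inducible cytosolic genes with a promoter (70.0%), namely Hspa1a, Hspa1b, Hsph1, Dnaja1, Hspb1, Hspb8 and Bag3, against 14 of 61 members and 9.04% of all genes. Hspa1a and Hspa1b, with nearly the same upstream sequence, count separately here. The inducible Dnajb1, Dnajb4 and Hspa4l did not hold GAANNTTC. Outside the class Dnaja4, Dnajb6, Hspd1, Hspe1, Cct2, Dnajc27 and Hspb6 held it. None of the 9 ER lumen and lectin genes with a promoter held it, nor did Hspa2, Hspa4 or Hspa14 of the constitutive class. Hspa8, Hsp90ab1 and the inducible Hsp90aa1 had no matched promoter and were not searched, so the classes were compared without them. The reverse arrangement, TTCNNGAA, was in 2 of the 10 inducible genes, Dnajb4 and Hsph1. It was also in 1 of the 9 ER lumen and lectin genes and in 9.6% of all genes. The arrangements overlap where 3 or more units run together. A run of 3 alternating units was in 1 of the 10 inducible genes and 2 of the 5 mitochondrial genes with a promoter. Over all genes its share was 0.662%. These are matches of letters and not measured binding.

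Hsp90aa1, the inducible cytosolic HSP90 gene, stood at 1016, 1202, 1364, 1472 and 1452 TPM in S452A libraries, against 1299, 1596, 1244, 1338 and 1867 TPM in WT libraries. The low S452A library 1 and the high WT libraries 2 and 5 were the ones seen for Hspa1a and Hspa1b. Hsph1, the inducible HSP110 gene, had 352, 447, 534, 575 and 366 TPM in S452A libraries, against 407, 565, 543, 501 and 631 TPM in WT libraries. The difference was -0.17 for Hsp90aa1 (-0.47 to 0.13) and -0.23 for Hsph1 (-0.58 to 0.11), each with a limma adjusted p of 0.952. Libraries of the genotypes overlapped for both.

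Other inducible genes had lower means in S452A libraries without passing the test. Dnajb1, the J protein that pairs with inducible HSP70, averaged 256 ± 41.9 TPM in S452A and 282 ± 36.4 TPM in WT libraries (SD, n = 5 each), a difference of -0.15. Hspb1, a small heat shock protein that holds unfolded proteins, had 128, 211, 247, 264 and 170.2 TPM in S452A libraries, against 221, 284, 234, 284 and 270.3 TPM in WT libraries. Its difference was -0.38 (-0.77 to 0.01), with an unadjusted p of 0.054 and an adjusted p of 0.952 by limma. Bag3, which links HSP70 to autophagy, differed by -0.22, and Dnaja1, a class A J protein, by -0.02.

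Hspa4l, an HSP110 gene, was the exception in sign. Its values were 27.2, 20.4, 32.9, 30.7 and 21.9 TPM in S452A libraries, against 15.6, 26.8, 18.6, 16.5 and 22.4 TPM in WT libraries. Of the S452A libraries 3 exceeded every WT library, and the other 2 lay inside the WT range. The difference was 0.40 (0.01 to 0.79), with an unadjusted p of 0.0447 and an adjusted p of 0.952 by limma. Hspb8, which partners Bag3, varied most of all members at 10 TPM or more, between 9.87 and 34.9 TPM in S452A libraries and between 16.2 and 33.8 TPM in WT libraries.

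Across the inducible class, 10 of 11 genes had a lower mean in S452A libraries and 1 a higher one, with a median difference of -0.20. None of the 11 passed, and over all tested genes 0.00718% did. The median over all 82 members was -0.04, with 30 higher and 52 lower in sign. Over all tested genes the median was -0.02, with 6496 higher and 7434 lower in sign. Many genes of this class followed each other from library to library, so their signs are not 11 separate observations. The 8 fibroblast markers were lower in S452A libraries as well, with a mean difference of -0.55 on the log2(TPM + 1) scale and summed levels of 84.3 to 239 TPM in S452A libraries and 184 to 359 TPM in WT libraries, and their part in the differences of the class was not tested. Leaving out single libraries turned the sign of Dnaja1 and Dnajb4. Without S452A library 1 the differences shrank to -0.11 for Hspa1a, -0.14 for Hspa1b, -0.15 for Hsph1, -0.05 for Dnajb1 and -0.23 for Hspb1. Without WT library 5 that of Hsp90aa1 was -0.08, and without WT library 2 that of Bag3 was -0.11. Without S452A library 1 the median of the class was -0.11, and the other left-out libraries gave values down to -0.255.

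**Figure D2:**
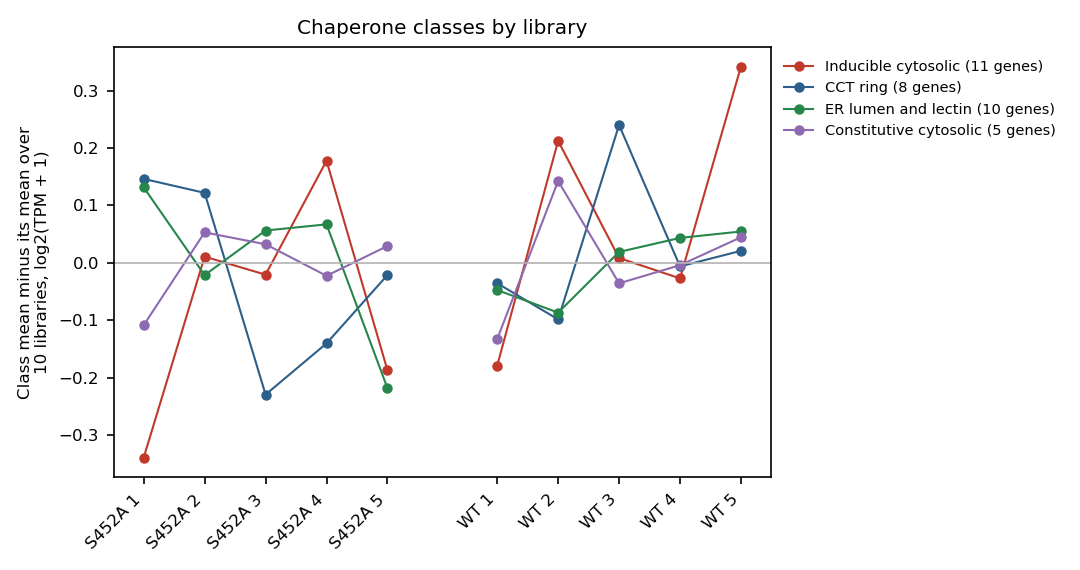
Mean log2(TPM + 1) of each of 4 chaperone classes in each library, minus the class mean over the 10 libraries, with S452A libraries left of WT libraries and lines that only join points of 1 class. The inducible class is lowest in S452A 1 and highest in WT 5, and the CCT class is lowest in S452A 3 and highest in WT 3.

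Hspa8, the constitutive HSP70 gene, stood at 2747, 2712, 3329.6, 3367 and 2735 TPM in S452A libraries, against 2733, 3310.1, 2786, 2938 and 3133 TPM in WT libraries. Its difference was -0.0044 (-0.23 to 0.22, limma adjusted p = 0.998). Hsp90ab1, the constitutive HSP90 gene, was narrowly spread in S452A libraries at 1579.9, 1618, 1593, 1634 and 1562 TPM, against 1489, 1919, 1828, 1714 and 1822 TPM in WT libraries. WT library 1 was the lowest of all and the other 4 WT libraries were above every S452A library. The difference was -0.13 (-0.32 to 0.06, limma adjusted p = 0.952). The class of 5 constitutive genes, which also holds the HSP110 gene Hspa4 and the HSP70 family genes Hspa14 and Hspa2, had a median difference of 0.0009 and 3 higher against 2 lower in sign.

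Several of these values depend on how reads of near-identical gene copies were shared out. A search among annotated transcripts found copies for 12 members, and for Hspa8 they held 43.6% of the TPM summed over gene and copies, mostly in Gm15459 at a mean of 2220 TPM. The share was 35.4% for Hsp90aa1, 52.0% for Dnaja1 and 60.3% for Hspb1, whose copy Hsp25-ps1 averaged 352 TPM. Levels and ranks of these members as single genes are uncertain for this reason. With the copies summed, an alternative chosen after the data were seen, the differences were -0.01 for Hspa8, -0.13 for Hsp90aa1, -0.0034 for Dnaja1 and -0.32 for Hspb1, and none passed.

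Inducible genes were set against constitutive partners of the same family as a log2 ratio within each library, which scaling of the library cannot alter. The ratio of Hspa1a plus Hspa1b to Hspa8 was 0.97, 1.27, 1.19, 1.21 and 1.46 in S452A libraries, against 1.41, 1.49, 1.33, 1.34 and 1.59 in WT libraries. Over all libraries the inducible pair stood 2.51-fold above Hspa8. The mean was 1.22 ± 0.18 in S452A and 1.43 ± 0.11 in WT libraries (SD, n = 5 each), a difference of -0.21 with a 2-sided exact permutation p of 0.0476. Adjusted over the 4 ratios compared the p was 0.190, so the ratio did not pass. S452A library 5, at 1.46, lay among the WT values, and without it the difference was -0.27 with an adjusted p of 0.0317 (exact permutation). No other left-out library gave a pass. With the copies of Hspa8 summed the means were 0.40 in S452A and 0.60 in WT libraries.

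The other 3 ratios did not pass. Hsp90aa1 to Hsp90ab1 averaged -0.31 ± 0.22 in S452A and -0.27 ± 0.22 in WT libraries (SD, n = 5 each; exact permutation p = 0.770), which places the inducible gene under the constitutive one. That order depends on the copies: with copies of Hsp90aa1 summed the means were 0.34 in S452A and 0.35 in WT libraries. The listed matches of these copies span 314 to 436 bases, and TPM are levels per length. How far the sum stands for reads of Hsp90aa1 is therefore uncertain. Hsph1 to Hspa4 averaged 2.54 ± 0.36 in S452A and 2.84 ± 0.28 in WT libraries (SD, n = 5 each; exact permutation p = 0.167, adjusted p = 0.333). Dnaja1 to Dnaja2, a pair of class A J proteins, averaged 1.77 ± 0.21 in S452A and 1.81 ± 0.15 in WT libraries (SD, n = 5 each; exact permutation p = 0.722). With copies of Dnaja1 summed the means were 2.84 in S452A and 2.87 in WT libraries. The smallest p that 5 against 5 libraries can give is 0.00794.

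**Figure D3:**
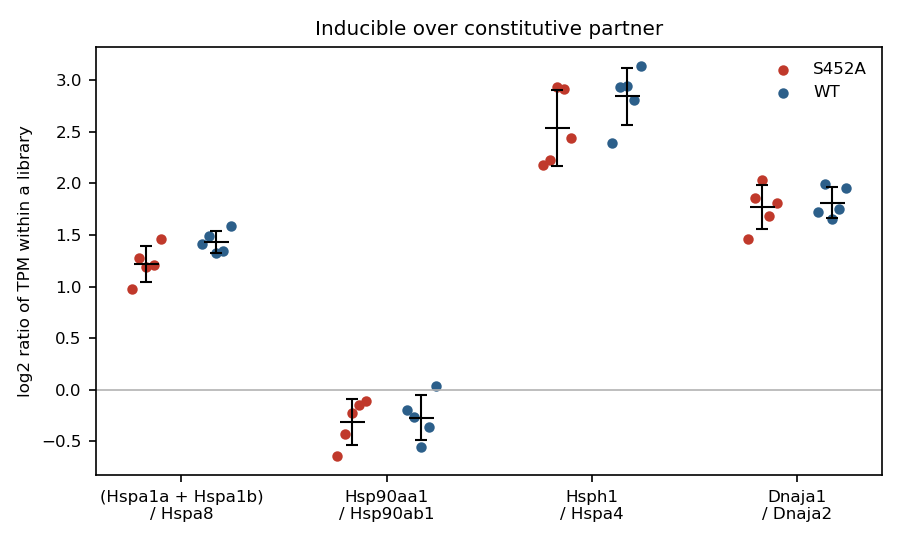
Log2 ratio of TPM of an inducible gene to its constitutive partner in each library, for 4 pairs, with S452A in red left of WT in blue and bars for the mean and SD (n = 5 each). For Hspa1a plus Hspa1b over Hspa8 the means are 1.22 in S452A and 1.43 in WT, and the points of the genotypes overlap in all 4 ratios.

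In the ER, Hspa5, the lumenal HSP70 known as BiP, had 1354, 1032, 1404, 1482 and 1146 TPM in S452A libraries, against 1044, 1145, 1209, 1309 and 1264 TPM in WT libraries. The groups overlapped, and the difference was 0.10 (-0.16 to 0.35, limma adjusted p = 0.958). Calr, the lectin chaperone calreticulin, averaged 585 ± 79.0 TPM in S452A and 628 ± 28.7 TPM in WT libraries, and Canx, its membrane-bound relative calnexin, 196 ± 9.74 TPM in S452A and 199 ± 12.2 TPM in WT libraries (SD, n = 5 each). Hsp90b1, the lumenal HSP90, averaged 319.7 ± 38.2 TPM in S452A and 320.2 ± 26.9 TPM in WT libraries (SD, n = 5 each). The 10 ER lumen and lectin genes had a median difference of -0.01, with 4 higher and 6 lower in sign. Dnajb9, a J protein of the lumen that binds the stress sensor IRE1, was spread widely in both genotypes, from 24.0 to 44.1 TPM in S452A and from 21.8 to 47.6 TPM in WT libraries.

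Promoters of some genes of this class carry another set of letters, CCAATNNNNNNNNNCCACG, known as the ER stress element. It was present in 5 of the 9 ER lumen and lectin genes with a promoter (Hspa5, Hsp90b1, Calr, Canx and Dnajc3), in none of the other 52 members with one, and in 0.137% of all genes. The letters were searched for as an element already known, so these shares are a description of matches and not a test. Hspa5 and Hsp90b1 are shown as the ER genes of highest level among the HSP70 and HSP90 families, at chr2:34771840-34772089 on the plus strand and chr10:86705445-86705694 on the minus strand, each 250 bases before the RefSeq start on GRCm38.p6 with the element in capitals. The match lies 65 bases before the start in Hspa5 and 212 and 107 bases before it in Hsp90b1, the nearer one on the other strand.
Hspa5: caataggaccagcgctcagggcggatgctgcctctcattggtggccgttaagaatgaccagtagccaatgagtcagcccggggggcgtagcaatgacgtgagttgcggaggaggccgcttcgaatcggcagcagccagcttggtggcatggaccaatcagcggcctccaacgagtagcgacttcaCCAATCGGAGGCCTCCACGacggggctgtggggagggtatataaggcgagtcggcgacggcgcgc
Hsp90b1: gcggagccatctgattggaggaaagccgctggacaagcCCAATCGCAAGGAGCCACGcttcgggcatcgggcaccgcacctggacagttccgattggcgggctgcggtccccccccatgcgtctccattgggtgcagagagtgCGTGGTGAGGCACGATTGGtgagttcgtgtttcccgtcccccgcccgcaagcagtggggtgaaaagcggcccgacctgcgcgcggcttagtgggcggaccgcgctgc

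The 6 ER membrane J proteins were low, with means of 2.27 to 24.7 TPM in S452A and 2.46 to 27.2 TPM in WT libraries, and 3 were higher and 3 lower in sign. Dnajb12, which helps HSP70 to degrade membrane proteins, was at 15.99, 15.8, 14.9, 13.9 and 15.1 TPM in S452A libraries, against 12.9, 11.6, 16.4, 12.5 and 12.3 TPM in WT libraries. All 5 S452A libraries exceeded 4 of the WT libraries, and WT library 3 was above every S452A library. The difference of Dnajb12 was 0.20 (-0.07 to 0.47, limma adjusted p = 0.952).

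Among mitochondrial chaperones, Hspd1 and Hspe1, which form the HSP60 and HSP10 folding chamber, were both well expressed. Hspd1 averaged 221 ± 14.3 TPM in S452A and 244 ± 33.2 TPM in WT libraries, and Hspe1 297 ± 46.7 TPM in S452A and 341 ± 51.1 TPM in WT libraries (SD, n = 5 each). The differences were -0.13 for Hspd1 and -0.20 for Hspe1, each with a limma adjusted p of 0.952. Hspa9, the mitochondrial HSP70, differed by 0.04 (-0.26 to 0.33). The class of 8 had a median difference of -0.02 and was split evenly in sign. A near-identical copy, Hspd1-ps3, held 42.25% of the TPM summed over Hspd1 and the copy, and the levels of Hspd1 and Hspe1 as single genes are uncertain for shared reads.

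Hspd1 and Hspe1 are divergent neighbours on chromosome 1, and their promoters overlap. The shared stretch holds a run of 4 alternating units, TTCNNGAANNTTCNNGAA. Such a run, in this order or as GAANNTTCNNGAANNTTC, was found in 0.0296% of all genes and in no other member with a promoter. It is shown on the plus strand as the 250 bases before the start of Hspe1, chr1:55087898-55088147, with the run in capitals.
Hspe1: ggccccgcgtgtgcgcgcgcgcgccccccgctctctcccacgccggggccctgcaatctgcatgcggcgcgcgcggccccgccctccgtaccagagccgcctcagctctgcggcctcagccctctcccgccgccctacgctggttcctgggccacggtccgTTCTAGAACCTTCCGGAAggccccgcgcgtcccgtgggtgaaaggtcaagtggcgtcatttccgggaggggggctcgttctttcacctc

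The 8 CCT subunits, which make up the rings of 1 chaperonin, stood at similar levels, with means of 124 to 264 TPM in S452A and 130.0 to 249 TPM in WT libraries. Tcp1, the alpha subunit, had 229.6, 232, 186, 173 and 212 TPM in S452A libraries, against 187, 182, 255, 206 and 221 TPM in WT libraries. Cct2 had 247, 222, 185, 179 and 231 TPM in S452A libraries, against 196, 213, 241, 207 and 208 TPM in WT libraries. S452A library 4 was lowest for both genes, and the highest was WT library 3 for Tcp1 and S452A library 1 for Cct2. Differences were -0.02 for Tcp1 and -0.01 for Cct2, and the median over the 8 subunits was -0.02, with 2 higher and 6 lower in sign.

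Of the remaining regulators, Hsf1, the factor that drives the inducible genes, averaged 20.6 ± 4.83 TPM in S452A and 21.6 ± 4.98 TPM in WT libraries (SD, n = 5 each), a difference of -0.07 (-0.47 to 0.33). Its transcript level does not measure its activity. Bag1, a nucleotide exchange factor of HSP70, averaged 149 ± 11.7 TPM in S452A and 142 ± 6.48 TPM in WT libraries (SD, n = 5 each). Bag4, a low-level member of the same family, had 2.16, 1.68, 1.53, 1.01 and 1.86 TPM in S452A libraries, against 4.90, 2.09, 2.27, 2.95 and 3.85 TPM in WT libraries. The groups overlapped by 1 library, and the difference was -0.64 (unadjusted p = 0.0142, adjusted p = 0.952, limma). Bag2, which inhibits the ubiquitin ligase that acts with HSP70, differed by -0.58. Of the 5 BAG genes other than Bag3, 1 was higher and 4 were lower in sign, with a median of -0.18.

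Dnaja4, a class A J protein, was the only member whose genotypes did not overlap. It had 2.49, 2.95, 2.61, 1.45 and 1.17 TPM in S452A libraries, against 5.26, 5.65, 3.56, 4.43 and 4.34 TPM in WT libraries. Every S452A library was below every WT library, with means of 2.13 ± 0.78 TPM in S452A and 4.65 ± 0.82 TPM in WT (SD, n = 5 each). The difference was -0.88 (-1.34 to -0.41), on a scale that understates the change of genes this low, with an unadjusted p of 0.00136 and an adjusted p of 0.847 over the 13930 genes by limma. It lay between -0.97 and -0.75 when any 1 library was left out. Non-overlap held for 1 of 82 members (1.22%), against 0.646% of all tested genes.

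The other 21 J proteins and rule members placed with Dnaja4 ranged from Dnajb13, at under 2 TPM in each library, to Dnaja2, at 129 ± 10.9 TPM in S452A and 127 ± 13.6 TPM in WT libraries (SD, n = 5 each). Of all 22, 10 were higher and 12 lower in sign, with a median of -0.03. Among those higher in sign, Dnajb5 (0.39) and Dnajb2 (0.19) had the smallest unadjusted p, and neither passed. Of the 6 pseudogenes and related sequences, 2 were higher in sign, Cct3-ps1 (0.24) and Dnajc19-ps (0.11), and 4 were lower.

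Across all members, none passed the adjusted threshold of 0.05. By limma, 5 of 82 members (6.1%) had an unadjusted p under 0.05, against 4.74% of all tested genes. Among them were Hspa4l, higher in S452A, and Dnaja4, Bag4 and the pseudogene Hspe1-ps3, lower in S452A. An exact Wilcoxon rank-sum test called no member after adjustment either and gave 2 of 82 members (2.44%) an unadjusted p under 0.05, against 3.19% of all tested genes. The 95% interval of the difference lay within 2-fold on the log2(TPM + 1) scale for 76 of the 82 members. Hspe1-ps3 had the widest difference, -1.33 (-2.33 to -0.34), and was listed at 3.46, 0, 3.04, 0.48 and 0.99 TPM in S452A libraries, against 5.82, 4.55, 2.53, 2.36 and 11.03 TPM in WT libraries. The groups overlapped, with S452A libraries 1 and 3 above WT libraries 3 and 4.

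**Figure D4:**
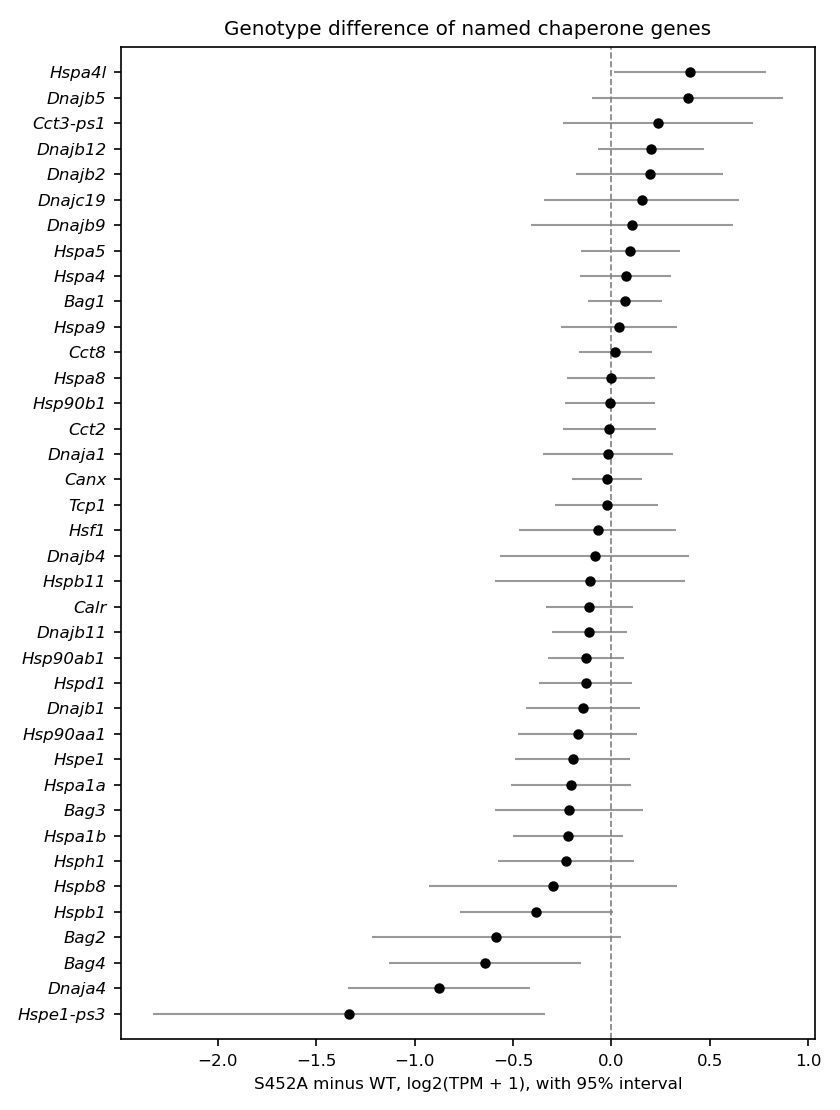
Difference in log2(TPM + 1), S452A minus WT, of 38 named chaperone genes, with points for the estimate and lines for the limma 95% interval. The inducible genes Hspa1a, Hspa1b, Hsph1 and Bag3 sit between -0.20 and -0.23 with intervals that cross 0, and Dnaja4 at -0.88 does not reach an adjusted p under 0.05.

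The spread between libraries is given by class as a description, with no test. After centring each genotype, the median SD of log2(TPM + 1) between libraries was 0.279 over the 11 inducible genes, 0.142 over the 4 constitutive genes at 10 TPM or more, 0.178 over the 8 CCT genes and 0.164 over the 10 ER genes. Over all 64 members at this level it was 0.212, and over all 7645 genes at this level 0.248. Dnajb11 (0.0782), Canx and Cct8 varied least. Hspb8 (0.534), Dnajb9, Dnajc19, Dnajb4 and Hspb11 varied most, all at mean levels under 50 TPM. For Dnajc19, the near-identical copy Dnajc19-ps held 69.9% of the TPM summed over both. With the copy summed, the limma standard error of the Dnajc19 difference was 0.119 in place of 0.228. The spread of Dnajc19 as a single gene is therefore uncertain for shared reads, and their part in it was not tested.

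Some of the inducible genes moved together across the 10 libraries. Hspa1a and Hspa1b gave r = 0.979 and rho = 0.964 (adjusted permutation p = 7e-05 over 14 pairs), a value that shared reads can enter. Their sum and Hsp90aa1 gave r = 0.966 and rho = 0.988 (adjusted permutation p = 7e-05), and r = 0.934 without the 2 libraries farthest from the median, S452A 1 and WT 5. With Hsph1 the sum gave r = 0.733 and rho = 0.758 (adjusted permutation p = 0.035), but r = 0.405 without those libraries (adjusted permutation p = 0.519). With each genotype centred the r with Hsph1 was 0.666 and no longer passed (adjusted permutation p = 0.0934). With Dnajb1 the sum gave r = 0.688 and rho = 0.382 (adjusted permutation p = 0.072), and r = -0.02 without S452A 1 and WT 5. The pair passed after rescaling the libraries by their median log ratio (r = 0.726, adjusted permutation p = 0.0414). Leaving out the libraries most extreme on the first measure narrows its range, which by itself can lower r. It therefore cannot decide how far these relations rest on those libraries. With Hspa8 the sum gave r = 0.652 and rho = 0.721 (adjusted permutation p = 0.0759), which after the same rescaling was r = 0.721 (adjusted permutation p = 0.0291).

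Other pairs, most of them within a single compartment, gave a mixed picture. The sum of Hspa1a and Hspa1b gave r = -0.01 and rho = 0.236 with Hspa5 (adjusted permutation p = 0.993). Hspa5 gave r = 0.381 and rho = 0.370 with Hsp90b1 (adjusted permutation p = 0.351) and r = 0.0034 and rho = 0.176 with Calr (adjusted permutation p = 0.993). Hspd1 with Hspe1 gave r = 0.500 and rho = 0.479, and Hsp90aa1 with Hsp90ab1 r = 0.495 and rho = 0.394 (adjusted permutation p = 0.232 each). Tcp1 and Cct2 gave r = 0.834 and rho = 0.782 (adjusted permutation p = 0.0152), with r = 0.712 without the 2 farthest libraries, S452A 4 and WT 3 (adjusted permutation p = 0.136). Of the 14 pairs, 5 passed.

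Collagenase digestion and sorting are known to induce early-response genes, so the Hspa1 sum was set beside such genes and T cell markers as well. With Atf3, a transcription factor gene of the early response, the sum gave r = 0.732 and rho = 0.758 (adjusted permutation p = 0.035). The value was 0.875 with each genotype centred (adjusted permutation p = 0.00887) and 0.675 without S452A 1 and WT 5 (adjusted permutation p = 0.136). With Fos it gave r = 0.384 and rho = 0.491 (adjusted permutation p = 0.351), and with the mean of the 8 T cell markers r = -0.12 and rho = -0.20 (adjusted permutation p = 0.857), or r = -0.62 without S452A 1 and WT 5 (adjusted permutation p = 0.241). The 11 early-response genes summed to 2994 to 5031 TPM in S452A libraries and 3399.6 to 4381 TPM in WT libraries. Their part in the level of the inducible chaperones was not tested.

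Over all pairs within a class, as a description of 10 shared libraries, the median r was 0.713 for the CCT genes, where all 28 pairs were positive, and 0.613 for the inducible genes, where 46 of 55 were. It was 0.241 for the ER genes, 0.081 for the mitochondrial genes and -0.23 for the 4 constitutive genes. Over all pairs of genes at 10 TPM or more it was 0.01. Between CCT and inducible genes the median r was -0.32, with 17 of 88 pairs positive, and between ER and inducible genes 0.0020. Hspb8 and Hspa4l did not share the pattern of their class: their r with the Hspa1 sum was -0.19 and 0.085, whereas Bag3 had 0.819, Dnaja1 0.794 and Hspb1 0.787.

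**Figure D5:**
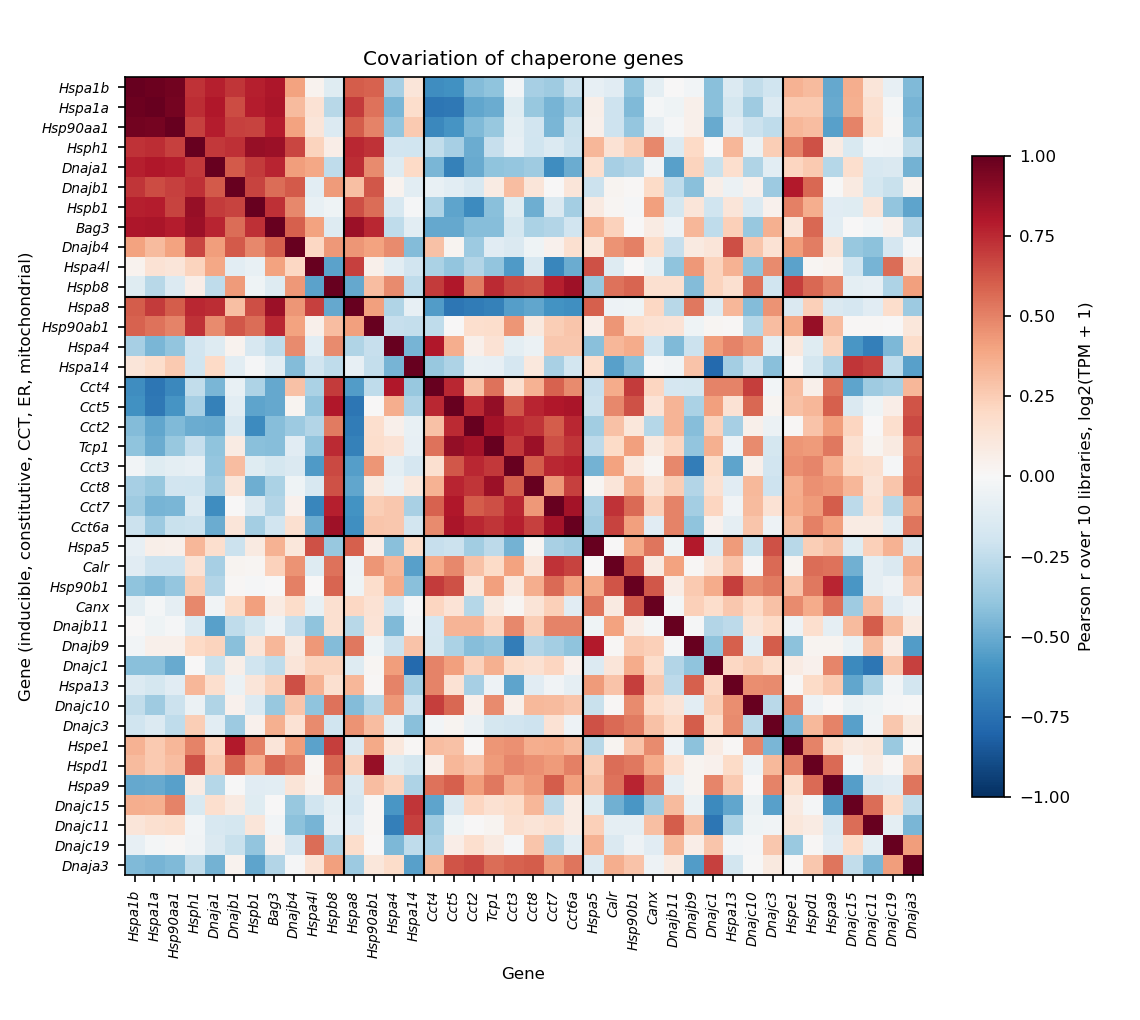
Pearson r of log2(TPM + 1) over the 10 libraries between chaperone genes of 5 classes at 10 TPM or more, red for positive and blue for negative, with black lines between classes. The CCT block and most of the inducible block are red, with median r of 0.713 and 0.613, and the field between them is mostly blue, with a median of -0.32.

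Of 20 cytosolic co-chaperone genes outside the rule, such as Stip1, which joins HSP70 to HSP90, 4 were higher and 16 lower in sign, and none passed. Of 17 tested genes of ER folding and the unfolded protein response, 7 were higher and 10 lower in sign. None passed, and Sdf2l1, a partner of ER J proteins, had 77.2 ± 13.9 TPM in S452A and 95.3 ± 11.7 TPM in WT libraries (SD, n = 5 each; difference -0.31, unadjusted p = 0.0367, adjusted p = 0.952, limma). Of 9 mitochondrial genes, 3 were higher and 6 lower in sign, and none passed. The median difference was -0.08 over the cytosolic list, -0.05 over the ER list and -0.07 over the mitochondrial list, beside -0.02 over all tested genes. Of all 13930 tested genes, 6496 were higher and 7434 lower in sign.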

How the data were processed

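The members and lists were chosen with earlier results of these data known. Per the labels' protocols, strand-specific libraries were prepared from 40 ng of column-purified RNA. The annotation release is not given in the sources used here, and STAR 2.7.9a, RSEM 1.3.0 and build GRCm38.p6 are named in the submitters' processing notes. A single table of TPM, corrected for transcript length and brought to an equal sum in each library, was deposited by the authors. No counts are kept, so depth is unknown and no counting interval is given.

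Columns were matched to samples by the sample descriptions and grouped by the genotype label. Testing covered genes at 1 TPM or more in 5 or more libraries, on log2(TPM + 1) with limma 3.58.1 in R 4.3.3 (lmFit, eBayes with trend, 2-sided, genotype only, Benjamini-Hochberg adjusted p under 0.05 over all 13930 genes). The procedure was tested on simulated data. Differences are S452A minus WT and understate the change of low genes. Ratios were compared by exact permutation and correlations by 100000 permutations, each adjusted within its family. Each library is a separate mouse by the labels, and p-values measure differences against the variation among mice.

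The text names a panel of 22 genes whether or not they passed, up to 5 further members in each direction by unadjusted p, and the 5 members of largest and 3 of smallest SD among those at 10 TPM or more, 39 in all, of which 1 is not reported here. A few others are named for their place in a count, after their values were seen. Gene positions came from GENCODE mouse release M21, promoters from RefSeq (GRCm38.p6), and near-identical copies from blastn 2.17.0 (at least 95% identity over 0.8 of the shorter transcript). Other steps ran in Python 3.11.15 with scipy 1.17.1, pandas 2.3.3, numpy 2.4.6 and, for figures, matplotlib 3.10.9. Alternatives were other pseudocounts, filters and scalings, a threshold of 0.1, a Wilcoxon test, a block on mouse number, leaving out each library and, chosen after the data were seen, summing near-identical copies.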

Additional observations from a re-analysis of the deposited data

Results flagged for a closer look

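Dnajb12, an ER membrane J protein, was marked for 1 WT library far from the others. WT library 3 had 16.37 TPM, and the nearest WT library had 12.94 TPM, a gap of 0.724 of the range of the WT libraries. All 5 S452A libraries, at 13.9 to 15.99 TPM, lay between these values. It was the only case among 86 sets of 5 libraries examined, and chance marks about 1 set in 20. These sets did not cover all members. In Cct3, WT library 3 had 259 TPM and the next WT library 199 TPM. In Dnajc4, WT library 1 had 31.8 TPM and the next WT library 19.8 TPM. Single S452A libraries stood apart as well. In Hspa13, S452A library 5 had 12.07 TPM and the next lowest S452A library 17.23 TPM. In Dnajc15, S452A library 5 had 40.57 TPM and the next S452A library 26.29 TPM. These genes are examples and not a full list. WT library 3 was the highest of the 10 in mean level of the CCT genes.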

How the results depend on the processing

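No chaperone gene passed under any alternative run. Over all genes the count was 1, and it was 0 with a minimum of 5 TPM in 5 libraries and with the exact Wilcoxon test, in which 445 genes had an unadjusted p under 0.05. Of the 39 named genes, 26 kept the sign of their difference in every alternative. Leaving out each library in turn gave ranges that crossed 0 for Dnaja1 (-0.0972 to 0.0894), Hspa8 (-0.0504 to 0.0344), Hspa4 (-0.0057 to 0.1207), Hsp90b1 (-0.0466 to 0.0645), Canx (-0.0489 to 0.0054), Hspa9 (-0.0365 to 0.1317), Tcp1 (-0.0734 to 0.0481), Cct2 (-0.0667 to 0.0484), Hsf1 (-0.1874 to 0.0344), Dnajb9 (-0.024 to 0.2494), Dnajc19 (-0.0053 to 0.3068), Dnajb4 (-0.2254 to 0.0644) and Cct8 (-0.0066 to 0.0537). Rescaling by the median log ratio gave 0.0091 for Hspa8, 0.0061 for Hsp90b1 and 0.0027 for Cct2, and quantile normalization gave 0.0069 for Hspa8 and -0.014 for Cct8; these differences lie near 0 in each case. With 1 library left out, the ratio of Hspa1a plus Hspa1b to Hspa8 differed by -0.2696 to -0.1475, Hsp90aa1 to Hsp90ab1 by -0.1131 to 0.0406 and Dnaja1 to Dnaja2 by -0.1107 to 0.0321. The median difference of the 5 BAG genes other than Bag3, -0.18 with all libraries, was -0.2589 to -0.109 in the same way. The correlation of the Hspa1 sum with Dnajb1 was -0.0182 without the 2 farthest libraries. Its correlation with Hspa5 was 0.2473 without them, 0.1491 with each genotype centred and 0.1018 after rescaling. Hspa5 with Calr gave -0.1112 without the 2 farthest libraries and -0.0615 after rescaling. The cause was not tested for any of these. Mouse numbers did not pair the libraries, since same-numbered mice had correlations of -0.148 to 0.074. With the number as a replicate block, 1 gene and no chaperone passed, and the ratio of Hspa1a plus Hspa1b to Hspa8 had an exact p of 0.0625, the smallest that 5 pairs allow. The number of libraries, 5 against 5, and the unknown depth limit what small differences can show.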

Other observations

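As a description over the 10 shared libraries, the chaperone genes whose log2 level followed the sum of Hspa1a and Hspa1b most closely outside the inducible class were Hspa8 (r = 0.652) and Hsp90ab1 (r = 0.569), the constitutive partners of the same families. At the other end stood Dnajb12 (r = -0.76), the CCT subunits Cct4 (r = -0.67) and Cct5 (r = -0.66), and the pseudogene Hspa9-ps1 (r = -0.56). The r of Hspa9 itself, the mitochondrial HSP70, was -0.51. TPM values of 1 library share a fixed total, and these genes were picked for their place in this order after their values were seen.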
